A study of Mus musculus with 2 samples.

Results

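Interferon-stimulated genes were followed as a list of 37 genes among the 27998 genes of the deposited matrices, summed over the cells of each annotated cell type on each day after muscle injury. All 37 were found by symbol. They were grouped by role into an antiviral group of 8 genes (the Ifit, Oas-like and Mx genes and Rsad2), a GTPase group of 7 genes (the Gbp genes, Igtp and Irgm1), 4 transcription factors, 4 nucleic acid sensors, 5 genes of ISG15, ubiquitin or ADP-ribose modification, and 9 other members. The samples were 2 single-cell libraries (10x Chromium v3) of notexin-injured tibialis anterior, a shin muscle that lifts the foot, 1 collected at day 2 and 1 at day 7. Notexin is a snake venom phospholipase that destroys muscle fibres and spares much of the stem cell and vessel compartment, so that the muscle regenerates. The sample labels give C57Bl/6 mice, female, 7 months old, for both libraries. The cell annotation gives whole-muscle dissociation, C57BL/6J, 1 mouse per library, male mice, and an age of 4 months at day 2 and 7 months at day 7. Uninjured muscle was not analysed here. With 1 library per day there are no replicates and no p-values. Time after injury, animal, age as annotated and library cannot be told apart, and a difference between days is a difference between these 2 libraries. Intervals in parentheses are 95% intervals that cover counting error only.

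Interferons are secreted cytokines that change transcription in the cells they reach. Type I interferons (alpha and beta) act through IFNAR1 and IFNAR2, the kinases JAK1 and TYK2, and a complex with STAT2 and IRF9 that binds the interferon-stimulated response element (ISRE). Interferon gamma, made mainly by NK and T cells, acts through IFNGR1, IFNGR2, JAK1 and JAK2 on genes with a gamma-activated site (GAS). The antiviral genes of the list are typical ISRE targets, and the GTPases respond strongly to interferon gamma, although most members respond to both kinds of interferon. In injured muscle, monocytes and macrophages clear debris, fibro-adipogenic progenitors (FAPs) are the stromal cells that build the matrix, and muscle stem cells (MuSCs) rebuild fibres.

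The libraries held 3494 cells with a cell type label at day 2 and 3385 at day 7, with 34512656 and 27911198 unique molecular identifier (UMI) counts. The 37 members took 0.570% of these counts at day 2 and 0.492% at day 7. Xist had 5 and 1 counts and the Y-linked genes 6575 and 4856, against the label of female mice. The libraries shared 4 barcode sequences among called cells and 1 in the annotation table. Some labels did not lead with their own markers. The day 2 T cell label held basophil markers at 1631 CPM (UMI counts scaled to the same total in every label) against T cell markers at 320, and the day 2 NK label held monocyte and macrophage markers at 3137 against NK markers at 597. The day 2 MuSC label held erythroid markers at 17260 against myogenic markers at 501, and the label Smooth Muscle held endothelial markers at 3699 and 5133 against 2178 and 4262 for smooth muscle and pericyte markers. The label Dendritic held monocyte and macrophage markers at 1860 and 2057 against dendritic markers at 687 and 890, and day 2 B cells held neutrophil markers at 3837 against B cell markers at 3324. At day 7 T and NK cells as a class held monocyte and macrophage markers at 1149 against T cell markers at 928 and NK markers at 303, and tenocytes held FAP markers at 28600 against tenocyte markers at 15320. The label of myoblasts and progenitors held markers of myonuclei at 50450 on that day against myogenic markers at 1131. The part of these cells in the results of their labels was not tested, apart from the T and NK values given below without basophil-marker cells.

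Promoter sequence near the start site is shown for 7 members, 4 from the antiviral and ISG15 side and 3 GTPases, because these carry the binding motifs that the grouping of the list refers to. The stretches come from RefSeq promoter windows on GRCm38.p6 (250 bases before to 50 after the annotated start), written 5′ to 3′ on the strand of the gene. Capitals mark matches to the ISRE core GAAANNGAAA or the GAS TTCNNNGAA, on either strand. A match on the opposite strand of an ISRE core reads as TTTCNNTTTC, and the GAS letters read the same on both strands.
Ifit1, chr19:34640765-34640833, plus strand: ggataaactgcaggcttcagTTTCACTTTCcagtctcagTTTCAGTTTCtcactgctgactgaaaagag
Ifit3, chr19:34583353-34583436, plus strand: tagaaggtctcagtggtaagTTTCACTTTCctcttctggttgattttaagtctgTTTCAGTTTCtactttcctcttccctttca
Rsad2, chr12:26456543-26456592, minus strand: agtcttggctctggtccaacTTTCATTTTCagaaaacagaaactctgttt
Isg15, chr4:156200855-156200916, minus strand: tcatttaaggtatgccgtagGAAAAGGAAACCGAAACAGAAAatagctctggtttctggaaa
Gbp3, chr3:142559979-142560034, plus strand: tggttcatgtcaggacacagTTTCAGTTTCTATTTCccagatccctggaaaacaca
Gbp7, chr3:142530210-142530312, plus strand: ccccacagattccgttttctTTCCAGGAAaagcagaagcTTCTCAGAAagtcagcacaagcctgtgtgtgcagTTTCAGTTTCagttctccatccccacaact
Igtp, chr11:58199491-58199551, plus strand: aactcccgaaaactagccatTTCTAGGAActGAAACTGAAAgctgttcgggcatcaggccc
Ifit1 and Ifit3 each carried 2 separate ISRE cores, Isg15 carried 3 that overlap, and Gbp3 carried 2 that overlap. In Gbp7 a pair of GAS matches stood before the ISRE core, and in Igtp a GAS match stood just before it.

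Of the 37 members, 29 had a promoter window, and Mx1, Gbp4, Dhx58, Zbp1, Ifi204, Usp18, Parp14 and Rtp4 did not. The ISRE core was found in 17 of the 29 genes (58.6%), against 3.99% of the 27025 genes in the table. By role it was found in 6 of 6 GTPases, 4 of 7 antiviral genes (Ifit1, Ifit3, Ifit1bl1 and Rsad2), 1 of 4 transcription factors (Stat2), the sensor Ifih1, 2 of 3 modifiers (Isg15 and Trim30a) and 3 of 8 other members (Phf11a, Ifitm3 and Bst2). The GAS letters were found in 8 of the 29 genes (27.6%), against 9.55% of all genes. They were in 3 of 6 GTPases (Gbp5, Gbp7 and Igtp) and in Ifit2, Irf1, Isg20, Ifitm3 and Bst2. A match says only that these letters are in the window. The members lie on 14 chromosomes, with the 4 Ifit genes together within chr19:34550694-34650009 and Gbp2, Gbp3, Gbp5 and Gbp7 within chr3:142493978-142638008 (GRCm38).

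At day 2 the antiviral genes were concentrated in Cxcl10+ monocytes and neutrophils. Their summed level was 5167 CPM (4945 to 5396) in the 38 cells labelled Monocyte (Cxcl10+), named for the lymphocyte-attracting chemokine Cxcl10, and 1372 CPM (1325 to 1420) in 996 neutrophils. The next labels were M2 macrophages high in Cx3cr1 at 392 (351 to 436), capillary endothelial cells at 322 (292 to 356) and dendritic cells at 305 (282 to 329), whose intervals met. The capillary cell with the most antiviral counts held 107 of that label's 399, and the dendritic cell with the most held 164 of 655. Without these cells, a view chosen after the values were seen, the labels had 237 and 230 CPM. Pro-remodeling FAPs at 66.7 (58.4 to 75.8), T cells at 69.0 (41.6 to 108) and NK cells at 22.1 (2.68 to 79.8) were lowest of the 18 labels with at least 20 cells. Barcodes with 1 to 100 counts, which hold mostly free (ambient) RNA, had 145 CPM, and these labels, B cells, MuSCs and stem-labelled FAPs lay under that level.

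At day 7 the antiviral level was spread over many cell types. Cxcl10+ monocytes still stood first at 3879 CPM (3685 to 4081) in 45 cells. Stem-labelled, arterial and capillary endothelial cells followed at 980 (892 to 1074), 928 (788 to 1086) and 897 (836 to 961), with intervals that met, apart from a tenocyte value described below. The arterial cell with the most antiviral counts held 48 of that label's 155. Without it, a view chosen after the values were seen, arterial cells had 697 CPM. Inflammatory monocytes at 765 (694 to 842), the Smooth Muscle label at 720 (688 to 752) and M2 macrophages high in Cx3cr1 at 676 (631 to 723) came next, each meeting its neighbour. Myogenic cells stood at the bottom of the 24 labels. MuSCs had 125 CPM (101 to 153), myoblasts and progenitors 71.7 (61.5 to 83.0), type IIb myonuclei 26.7 (14.6 to 44.8) and type IIx myonuclei 9.04 (0.229 to 50.4), all under the ambient level of 334 CPM on that day. Adipogenic FAPs at 229 (207 to 254) and NK cells at 188 (152 to 230) were also under it.

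**Figure D1:**
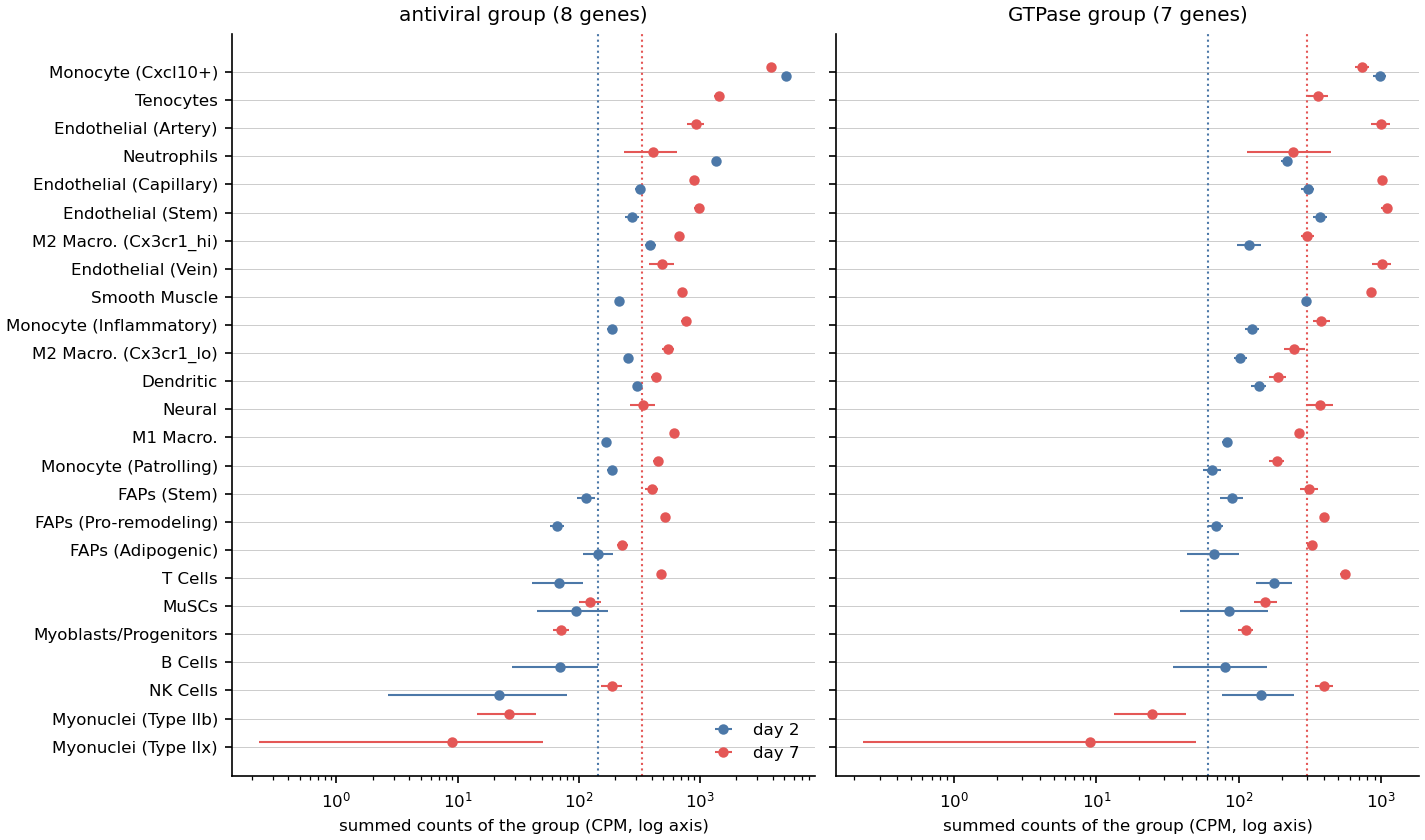
Summed level of the antiviral genes (left) and of the GTPase genes (right) in each cell type label with at least 20 cells, in CPM on a log axis, with day 2 and day 7 in different colours. Bars are 95% counting intervals and dotted lines the ambient level of each day: Cxcl10+ monocytes lead the antiviral panel on both days (5167 and 3879 CPM), and endothelial labels lead the GTPase panel at day 7.

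The GTPase genes had another order. At day 2 Cxcl10+ monocytes were again first at 978 CPM (883 to 1080), but stem-labelled endothelial cells at 374 (333 to 419), capillary endothelial cells at 305 (275 to 337) and the Smooth Muscle label at 295 (281 to 311) came ahead of neutrophils at 218 (199 to 237). At day 7 the 4 endothelial labels stood first, from 994 (849 to 1157) in arterial to 1098 CPM (1005 to 1197) in stem-labelled cells, and their intervals met. The Smooth Muscle label had 853 (819 to 889) and Cxcl10+ monocytes 735 (652 to 826). T cells at 553 (518 to 590) and NK cells at 398 (344 to 458) stood above M1 macrophages at 263 (246 to 281). The ambient level was 61.2 CPM at day 2 and 300.0 at day 7, so the day 7 levels of most FAP and macrophage labels, between 246 and 394 CPM, lay near that of free RNA.

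Single members followed the group totals unevenly. At day 2, 34 of the 37 members had their highest level in Cxcl10+ monocytes. The exceptions were Irf1 and Irf9, highest in neutrophils at 177 and 87.7 CPM, and Gbp4, highest in stem-labelled endothelial cells at 58.3. At day 7 the count was 25 of 37. Gbp3, Gbp4, Ifi44 and Ifitm3 were then highest in venous endothelial cells (21 cells), Gbp5 and Gbp7 in stem-labelled and Irf9 in capillary endothelial cells, Igtp in T cells at 129 CPM, and Phf11a in dendritic cells at 68.1. Irf1 and Ifit1bl1 were highest in 22 neutrophils, a label that held basophil markers at 1176 CPM on that day.

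The tenocyte label at day 7 had the second antiviral level, 1433 CPM (1324 to 1548), but 561 of its 642 antiviral counts came from 1 of its 49 cells. Without that cell, a view chosen after its value was seen, the label had 195 CPM. The cell held 31636 counts in all, with 196 of Ifit1, 151 of Ifit3, 86 of Ifit2, 77 of Rsad2 and 448 of Cxcl10. It had 183 counts of Thbs4 and 136 of Dcn, which tenocytes and fibroblasts express, 0 of the tenocyte genes Scx, Tnmd and Fmod, 0 of the leukocyte gene Ptprc and 1 of the myeloid gene Lyz2. It held 97 GTPase counts. Ifit1 was the only member with its top level in tenocytes on that day.

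The balance between the groups differed between cell types. Cxcl10+ monocytes held 5.29 antiviral counts per GTPase count (4.74 to 5.91) on day 2 and 5.28 (4.64 to 6.01) on day 7. Neutrophils held 6.30 (5.75 to 6.93) at day 2 and 1.70 (0.735 to 4.15) in 22 cells at day 7, intervals that did not meet. The other monocytes and macrophages held 2.21 (2.08 to 2.36) and 2.28 (2.16 to 2.41) as a class. Within it M2 macrophages high in Cx3cr1 went from 3.30 (2.64 to 4.16) to 2.23 (1.97 to 2.52), intervals that did not meet either. Dendritic cells held 2.21 (1.93 to 2.55) and 2.33 (1.96 to 2.77). Endothelial cells were on the GTPase side with 0.857 (0.771 to 0.951) and 0.855 (0.797 to 0.917), and so was the Smooth Muscle label with 0.727 (0.672 to 0.786) and 0.843 (0.794 to 0.896). The intervals of the days met in Cxcl10+ monocytes, dendritic cells and endothelial cells but not in the Smooth Muscle label.

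T and NK cells were also on the GTPase side. T cells held 0.388 antiviral counts per GTPase count (0.216 to 0.671) on day 2 and 0.862 (0.783 to 0.948) on day 7, which met the endothelial value, and NK cells 0.472 (0.365 to 0.607) at day 7. FAPs as a class held 1.15 (0.996 to 1.32) and 1.19 (1.14 to 1.25), but their labels changed in different directions. Adipogenic FAPs went from 2.17 (1.31 to 3.68) in 31 cells to 0.701 (0.613 to 0.800) in 237 cells, and pro-remodeling FAPs from 0.971 (0.808 to 1.17) to 1.30 (1.23 to 1.37), while stem-labelled FAPs held 1.30 (1.01 to 1.68) and 1.29 (1.06 to 1.56). The day 2 value of adipogenic FAPs rests on 52 antiviral counts, of which the cell with the most held 20. Over all cells the balance was 2.11 (2.05 to 2.18) on day 2 and 1.35 (1.32 to 1.39) on day 7, with neutrophils making up 996 cells on the first day and 22 on the last.

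**Figure D2:**
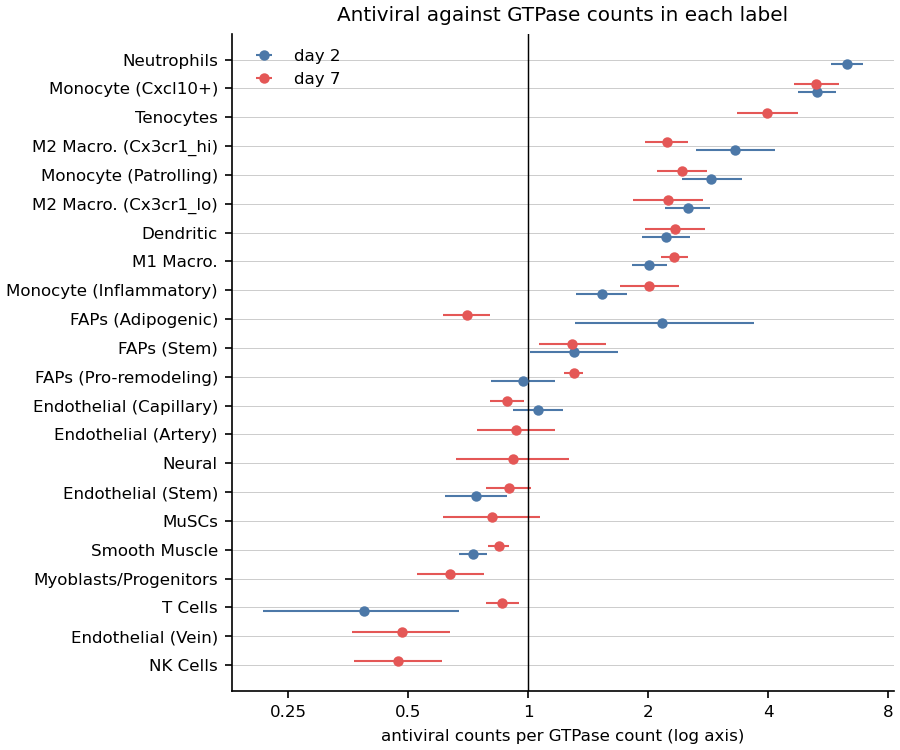
Antiviral counts per GTPase count (log axis) in each label with at least 20 cells and 50 summed counts, by day, with 95% counting intervals. The vertical line marks equal counts: Cxcl10+ monocytes and day 2 neutrophils lie near 5 to 6, the other myeloid labels lie between these and the line, T and NK cells lie under 1, and the tenocyte value at day 7 (3.96) includes the cell described above.

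Between day 2 and day 7 both groups were higher in each of 4 broad classes. Monocytes and macrophages (6 labels, 1292 and 758 cells) went from 323 to 766 CPM of antiviral counts, log2 ratio 1.25 (1.19 to 1.30), and from 113 to 287 of GTPase counts, 1.34 (1.25 to 1.43). FAPs (3 labels, 216 and 813 cells) went from 84.3 to 447, 2.41 (2.26 to 2.55), and from 73.6 to 375, 2.35 (2.19 to 2.50). Endothelial cells (4 labels, 337 and 334 cells) went from 273 to 884, 1.69 (1.56 to 1.83), and from 319 to 1034, 1.70 (1.57 to 1.82). In these 3 classes the intervals of the antiviral and GTPase ratios met. T and NK cells (73 and 444 cells) went from 57.4 to 411, 2.84 (2.22 to 3.54), and from 170 to 518, 1.61 (1.24 to 2.00), so that the antiviral ratio was the larger, and the difference of the ratios was not itself tested. Leaving out T and NK cells with any basophil marker count, chosen after the markers were seen, gave 2.82 and 1.43. At day 2 the T cell with the most antiviral counts held 79153 of all 275326 counts of its label. The NK cell with the most held 23215 of 90518, against medians of 3286 counts in T cells and 3414 in NK cells. The day 2 levels of this class, here and below, thus rest in part on these cells, and their part in the values of single genes was not tested.

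Free RNA moved in the same direction. The ambient antiviral level had the log2 ratio 1.20 (1.05 to 1.36) and the ambient GTPase level 2.29 (2.07 to 2.52). With the ambient-corrected (SoupX) values the antiviral ratios were 1.24 in monocytes and macrophages, 2.44 in FAPs, 1.69 in endothelial cells and 2.92 in T and NK cells, and the GTPase ratios were 1.32, 2.35, 1.68 and 1.60 in the same order. The ambient GTPase ratio thus met the FAP ratio of 2.35 (2.19 to 2.50), and the FAP level of 375 CPM at day 7 stood beside an ambient level of 300.0. The monocyte and macrophage antiviral ratio of 1.25 lay inside the ambient antiviral interval, and the GTPase level of that class at day 7, 287 CPM, lay under the ambient one. Free RNA's remaining part in the ratios was not tested. The median ratio of all genes was not 0 in FAPs, where a median-of-ratios scaling shifted values by 0.20 and left 2.21 for the antiviral and 2.15 for the GTPase group.

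Among the 17 labels with at least 20 cells on both days, the antiviral log2 ratio was above 0 in 14, below 0 in 2 and had an interval that held 0 in 1. The labels below 0 were Cxcl10+ monocytes at -0.41 (-0.51 to -0.32) and neutrophils at -1.75 (-2.53 to -1.07), the latter with 22 cells at day 7. MuSCs held 0 at 0.40 (-0.54 to 1.51). The GTPase ratio was above 0 in 14, below 0 only in Cxcl10+ monocytes at -0.41 (-0.64 to -0.19), and held 0 in neutrophils at 0.14 (-0.93 to 1.03) and MuSCs. Pro-remodeling FAPs had the largest ratios with at least 50 cells on both days, 2.94 (2.75 to 3.14) and 2.52 (2.33 to 2.72). Within macrophages, the M1 label had 1.87 (1.77 to 1.98) for the antiviral genes and the M2 label high in Cx3cr1 0.79 (0.60 to 0.97).

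Member by member, a larger part of the list was called higher in FAPs and endothelial cells than in monocytes and macrophages as a class. Members with at least 20 counts over both libraries were called when the CPM differed by at least 2-fold. In FAPs 30 of 35 such members were called higher at day 7 and 0 lower, against 25.6% and 14.0% of all 11853 genes with 20 counts, and the median log2 ratio was 2.08 against 0.21. In endothelial cells 27 of 34 were called higher and 0 lower, against 14.9% and 9.51% of 9619 genes, with medians of 1.52 and 0.06. In monocytes and macrophages 14 of 37 were called higher and 1 lower, against 19.3% and 12.8% of 11319 genes, with medians of 0.80 and -0.02. Its labels were uneven, and the class includes the Cxcl10+ label, whose levels were lower at day 7. In M1 macrophages 22 of 36 members were called higher, against 17.0% of genes, with a median of 1.20 against -0.09. In inflammatory monocytes it was 20 of 33, against 13.3%, with a median of 1.31 against -0.14. In M2 macrophages high in Cx3cr1 it was 7 of 34, against 14.7%, with a median of 0.59 against -0.14. The counts of these single labels may include members that passed the minimum only through day 7. Gbp4 and Gbp5, short of 20 counts at day 2 in the whole class, passed in M1 macrophages. Counts of single labels, here and below, were not repeated with 20 counts at day 2 alone. In T and NK cells 31 of 36 were called higher and 0 lower, against 13.6% and 8.12% of 8971 genes. There 30 of the 36 members had under 20 counts at day 2 and passed through day 7, when the class had far more cells, so that count is no support for a rise. In FAPs 7 of the 35 (Rsad2, Mx1, Oasl1, Gbp4, Gbp5, Cmpk2 and Ifi44) also passed only through day 7, and so did Gbp4 and Gbp5 in monocytes and macrophages and Dhx58 in endothelial cells. With 20 counts at day 2 alone as the minimum, chosen after the values were seen, 23 of 28 members were called higher in FAPs, against 15.9% of genes, 26 of 33 in endothelial cells, against 9.80%, 12 of 35 in monocytes and macrophages, against 13.8%, and 2 of 6 in T and NK cells, against 2.49%. The members short of 20 counts were Ifit1bl1 and Phf11a in FAPs, those and Mx1 in endothelial cells, and Gbp5 in T and NK cells.

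In monocytes and macrophages, FAPs and endothelial cells together, 27 members had 20 counts at day 2 alone in each of these 3 classes. Gbp2, Gbp3, Herc6, Ifit2, Ifit3, Irf1, Irf7, Stat2 and Xaf1 were at least 2-fold higher in each, 9 of 27 against 1.66% of 7364 genes. The members with a ratio at or below 0 in some of these classes were Ifi204, Ifitm3, Isg20, Trim30a and Zbp1.

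**Figure D3:**
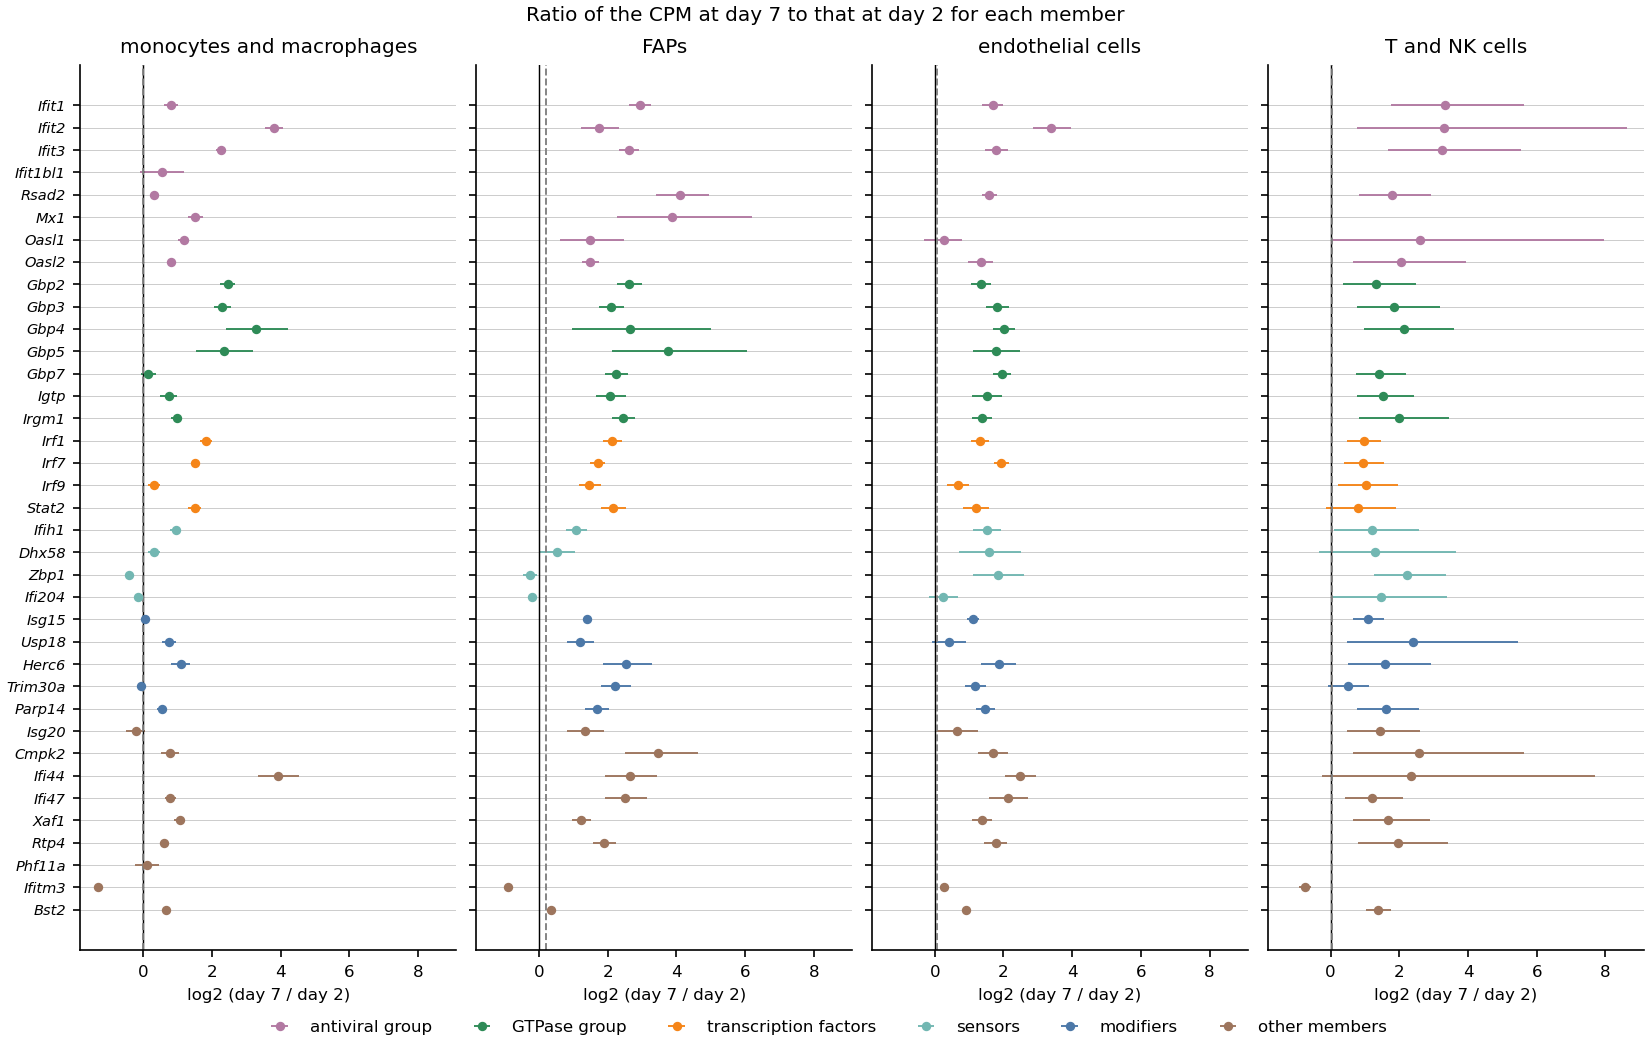
Log2 ratio of the CPM at day 7 to that at day 2 for each member in 4 classes, coloured by role, with 95% counting intervals and a dashed line at the median of all genes. Members with under 20 counts or with 0 in a library are not drawn. Most members lie right of the line in FAPs and endothelial cells (medians of 2.08 and 1.52), while in monocytes and macrophages several lie near 0 and Ifitm3 lies at -1.30.

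The antiviral genes code for proteins that act on viral RNA or membranes. Rsad2 (viperin, which makes a chain-terminating nucleotide) was at 107 CPM (102 to 112) in monocytes and macrophages on day 2 and 134 (125 to 142) on day 7, log2 ratio 0.32 (0.21 to 0.43). Of its 1760 counts there at day 2, 939 came from the 38 Cxcl10+ cells, and the other monocytes and macrophages went from 51.0 (47.6 to 54.6) to 96.6 CPM (89.5 to 104). Neutrophils had 498 CPM (470 to 527) at day 2. In FAPs it went from 3.12 (1.78 to 5.06) to 54.1 (49.1 to 59.3), a ratio of 4.12 (3.40 to 4.94) and the largest of any member there. In endothelial cells it went from 98.1 to 295, 1.59 (1.36 to 1.82), and in T and NK cells from 24.6 to 84.4, 1.78 (0.82 to 2.93), on 9 counts at day 2. At day 2 Rsad2 was thus lower in FAPs than in each of the other classes named. Oasl2, an OAS-like protein with ubiquitin-like domains, had ratios of 0.82 (0.71 to 0.94), 1.49 (1.24 to 1.73), 1.34 (0.97 to 1.71) and 2.05 (0.65 to 3.95) in monocytes and macrophages, FAPs, endothelial cells and T and NK cells.

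The Ifit genes code for proteins that bind viral RNA ends. Ifit2 changed most in macrophages, from 9.16 (7.76 to 10.7) to 128 CPM (120 to 136), log2 ratio 3.80 (3.55 to 4.06), while its neighbour Ifit1 had 0.82 (0.61 to 1.03). Ifit3 lay between them there with 2.26 (2.11 to 2.41). These values include the Cxcl10+ label, which held 98 Ifit2 and 225 Ifit1 counts at day 2 against 53 and 213 in the other monocytes and macrophages. In those other cells Ifit2 went from 3.29 to 97.3 CPM, Ifit1 from 13.2 to 31.5 and Ifit3 from 17.0 to 118. In endothelial cells Ifit2 again led, with 3.38 (2.85 to 3.96) against 1.69 for Ifit1 and 1.79 for Ifit3. In FAPs the order was turned, with 2.93 (2.62 to 3.26) for Ifit1, 2.61 for Ifit3 and 1.74 (1.21 to 2.32) for Ifit2. These genes have near copies (Ifit3b, Ifit1bl1), so the split of reads between them is uncertain. In T and NK cells the 3 ratios were 3.34 (1.77 to 5.63), 3.29 (0.76 to 8.62) and 3.24 (1.67 to 5.53) for Ifit1, Ifit2 and Ifit3, on 1 to 3 counts at day 2.

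Mx1, a dynamin-like GTPase that is defective in most laboratory strains, went from 20.6 (18.4 to 22.9) to 59.0 CPM (53.7 to 64.8) in monocytes and macrophages and from 3 to 70 counts in FAPs, log2 ratio 3.88 (2.27 to 6.19). In endothelial cells Mx1 had 0 and 3 counts, although Ifit1, Ifit2 and Ifit3 were read there on both days. In T and NK cells Mx1 had 0 counts at day 2, which a count of 0 bounds at 8.20 CPM, and 102 counts at day 7, or 47.0 CPM. Oasl1, which limits translation of Irf7 transcripts, had ratios of 1.18 (1.02 to 1.34) in monocytes and macrophages and 0.25 (-0.30 to 0.81) in endothelial cells, an interval that holds 0. Ifit1bl1 had 54 and 36 counts in monocytes and macrophages, 0 and 65 in T and NK cells, 64 of them in the label T Cells, and 0 on both days in endothelial cells.

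The GTPase genes code for large guanylate-binding proteins and immunity-related GTPases that attack membranes around intracellular microbes. Irgm1, a regulator of the other immunity-related GTPases, went from 37.4 (34.5 to 40.4) to 73.4 CPM (67.4 to 79.8) in monocytes and macrophages, log2 ratio 0.97 (0.81 to 1.14), and from 16.6 to 90.3 in FAPs, 2.45 (2.12 to 2.79). Its ratio was 1.37 (1.07 to 1.68) in endothelial cells and 1.99 (0.83 to 3.46) in T and NK cells. Gbp7 was the exception in macrophages. It went from 28.9 (26.4 to 31.7) to 32.2 CPM (28.3 to 36.5) there, 0.15 (-0.08 to 0.38), against 2.26 (1.94 to 2.59) in FAPs, 1.96 (1.71 to 2.22) in endothelial cells, where it went from 70.5 to 275 CPM, and 1.41 (0.73 to 2.19) in T and NK cells. Gbp7 shares 11.4% of its exonic bases with a pseudogene, and Igtp 8.01% with Irgm2.

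The other guanylate-binding genes were at least 2-fold higher in macrophages. Gbp2 went from 14.0 (12.3 to 15.9) to 76.8 CPM (70.7 to 83.4), log2 ratio 2.46 (2.23 to 2.68), and Gbp3 from 11.8 to 58.0, 2.30 (2.05 to 2.55). Gbp4 had 3.28 (2.43 to 4.23) but was a scarce transcript in macrophages (14 and 62 counts). In endothelial cells it was at 43.3 (35.4 to 52.4) and 175 CPM (155 to 196). It was not confined to them, since at day 2 the Smooth Muscle label came next after stem-labelled endothelial cells. Gbp5, which promotes inflammasome assembly, had 3.75 (2.13 to 6.06) in FAPs on 3 and 64 counts. Igtp (Irgm3) had 0.74 (0.50 to 0.99) in macrophages, 2.08 in FAPs, 1.51 in endothelial cells and 1.54 in T and NK cells, where it was at 38.3 (20.9 to 64.2) and 111 CPM (97.6 to 126). All Gbp genes are close relatives, which makes the division of reads among them uncertain.

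The transcription factors had ratios above 0 in all 4 classes, although not always beyond counting error. Irf7, the factor that amplifies type I interferon transcription, went from 191 (184 to 198) to 540 CPM (524 to 557) in monocytes and macrophages, log2 ratio 1.50 (1.43 to 1.57), and had 1.71 (1.49 to 1.93) in FAPs, 1.93 (1.72 to 2.15) in endothelial cells and 0.94 (0.39 to 1.54) in T and NK cells. Irf1, an early target of interferon gamma, went from 23.5 (21.3 to 26.0) to 83.6 CPM (77.2 to 90.4) in monocytes and macrophages, 1.83 (1.64 to 2.02), and from 25.1 to 110 in FAPs, 2.13 (1.86 to 2.41). Irf9 and Stat2, which act together at the ISRE, differed from each other. Irf9 had 0.32 (0.15 to 0.49) in monocytes and macrophages and 0.67 (0.36 to 0.99) in endothelial cells, and Stat2 had 1.50 (1.31 to 1.69) and 1.20 (0.82 to 1.58). In T and NK cells Stat2 had 0.81 (-0.13 to 1.91).

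The sensors split by cell type. Ifi204, a DNA sensor of the interferon-inducible p200 family, was at 281 CPM (273 to 290) in monocytes and macrophages on day 2 and 256 (244 to 267) on day 7, log2 ratio -0.14 (-0.22 to -0.06), and at 221 and 191 in FAPs, -0.21 (-0.32 to -0.10). It had 0.25 (-0.17 to 0.67) in endothelial cells and 1.48 (0.05 to 3.40) in T and NK cells, on 4 counts at day 2. Zbp1, a sensor of Z-form nucleic acid that triggers cell death, was at 215 (208 to 222) and 163 (154 to 172) in monocytes and macrophages, -0.40 (-0.50 to -0.31), and at 67.8 and 56.6 in FAPs, -0.26 (-0.46 to -0.05). In endothelial cells it went from 9.48 (6.01 to 14.2) to 34.0 (25.7 to 44.0), 1.84 (1.12 to 2.61), and in T and NK cells from 24.6 to 114, 2.22 (1.27 to 3.36). Both were thus as high or higher early in the cells that held most of them. Ifih1 (MDA5), which senses long double-stranded RNA, was higher at day 7 in all 4 classes, but in T and NK cells it passed the count minimum only through day 7. Ifih1 had 0.94 (0.78 to 1.11) in monocytes and macrophages and 1.52 (1.12 to 1.93) in endothelial cells. Dhx58 (LGP2), its partner, had 0.32 (0.14 to 0.50) and 1.57 (0.70 to 2.50) in these classes.

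Among the modifiers, Isg15, the ubiquitin-like protein that is conjugated to others, did not follow the group in macrophages. It was at 354 CPM (345 to 363) on day 2 and 366 (353 to 380) on day 7, log2 ratio 0.05 (-0.02 to 0.12). It went from 97.6 (89.2 to 107) to 259 (248 to 271) in FAPs, 1.41 (1.27 to 1.55), from 205 to 445 in endothelial cells, 1.12 (0.95 to 1.28), and from 126 to 266 in T and NK cells, 1.08 (0.65 to 1.55). Trim30a, a ubiquitin ligase that restrains inflammatory signalling, had -0.07 (-0.18 to 0.05) in monocytes and macrophages, 2.22 (1.79 to 2.67) in FAPs, 1.18 (0.89 to 1.48) in endothelial cells and 0.51 (-0.06 to 1.13) in T and NK cells. Usp18, which removes ISG15 and dampens the receptor, had 0.75 (0.53 to 0.96), 1.21, 0.41 and 2.39 in the same order, with an endothelial interval that held 0. Herc6, the ISG15 ligase of mice, was at least 2-fold higher in all 4 classes, from 1.09 (0.82 to 1.36) to 2.54 (1.87 to 3.29). In T and NK cells Herc6 passed the count minimum only through day 7, so that class is no support for a rise. Parp14, an ADP-ribosyltransferase, had 0.53 (0.41 to 0.66), 1.68, 1.47 and 1.60.

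The other members held both the largest and the smallest ratio in monocytes and macrophages. Ifitm3, a membrane protein that blocks virus fusion and is made constitutively by many cells, went from 3338 (3310 to 3366) to 1355 CPM (1329 to 1382) in monocytes and macrophages, log2 ratio -1.30 (-1.33 to -1.27), and from 3388 to 1829 in FAPs, -0.89 (-0.92 to -0.86). In endothelial cells it went from 3305 (3233 to 3378) to 3959 (3864 to 4055), 0.26 (0.21 to 0.31), and in T and NK cells from 992 to 590, -0.75 (-0.92 to -0.58). It was the only member called lower in any of the 4 classes, and under median-of-ratios scaling it was also called lower in FAPs. Bst2 (tetherin), which holds virions at the surface, had 0.66 (0.61 to 0.71) in monocytes and macrophages, 0.35 (0.27 to 0.42) in FAPs, 0.92 (0.82 to 1.01) in endothelial cells and 1.38 (1.03 to 1.75) in T and NK cells.

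Ifi44, a cytoplasmic protein of uncertain action, was at the other end there, from 1.76 (1.18 to 2.53) to 26.5 CPM (22.9 to 30.4) in monocytes and macrophages, log2 ratio 3.91 (3.34 to 4.53), and from 22.7 to 127 in endothelial cells, 2.48 (2.05 to 2.94). Ifi47, another interferon-inducible GTPase, had 2.14 (1.59 to 2.73) in endothelial cells, and Cmpk2, a mitochondrial nucleotide kinase beside Rsad2, had 3.47 (2.50 to 4.62) in FAPs. Isg20, an RNA exonuclease, had -0.21 (-0.50 to 0.06) in monocytes and macrophages. Xaf1, which promotes apoptosis, and Rtp4 had 1.07 and 0.61 there.

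Dendritic cells and the Smooth Muscle label were looked at in the same way. In dendritic cells (170 and 147 cells) the antiviral sum had the log2 ratio 0.51 (0.34 to 0.69) and the GTPase sum 0.44 (0.17 to 0.71). The cell with the most antiviral counts held 164 of 655 at day 2 and 48 of 454 at day 7. Without these cells the antiviral levels were 230 and 395 CPM. Of 35 members with 20 counts, 8 were called higher and 2 lower, against 13.7% and 8.45% of all genes. The lower ones were Ifitm3 at -1.66 (-1.74 to -1.58) and Gbp7 at -3.46 (-5.77 to -1.85), which had 3 counts at day 7. Irf1 at 2.26 (1.87 to 2.66) and Irf7 at 1.17 (0.98 to 1.37) were among the higher ones, and Isg15 had -0.38 (-0.57 to -0.18). In the Smooth Muscle label (304 and 238 cells) 27 of 34 were called higher and 0 lower, against 14.1% and 7.84%, with all 7 GTPases and 6 antiviral genes among them, and sums at 1.74 (1.64 to 1.85) and 1.53 (1.44 to 1.62).

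Within monocytes and macrophages, the Cxcl10+ label carried the members in concentrated form. The label was drawn from these transcriptomes, so its levels are a description. At day 2 its antiviral level was 25.3-fold (24.0 to 26.8) and its GTPase level 10.6-fold (9.47 to 11.9) that of the other monocytes and macrophages. At day 7 the folds were 6.50 (6.12 to 6.89) and 2.80 (2.47 to 3.18), with the other cells at 204 and 597 CPM of antiviral and 92.1 and 262 of GTPase counts on these days. At day 2, 33 of 35 members with 20 counts were at least 2-fold higher in the label, beside 15.1% of all genes, and at day 7 it was 35 of 37, beside 8.24%. Ifit1bl1 was held mostly by the label early, with 48 counts in its 38 cells against 6 in the other 1254 on day 2, and 14 against 22 on day 7. Ifit2 had 75.4-fold at day 2 and 7.06-fold at day 7, Rsad2 46.6 and 8.45, Ifit1 43.1 and 10.5, and Isg15 10.8 and 4.91. The transcription factor Irf9 had 1.53 and 1.30, the latter with an interval that held equal levels, and Ifitm3 had 1.85 and 2.11. Cxcl10 itself, for which the label is named, had 31.4 and 11.6.

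**Figure D4:**
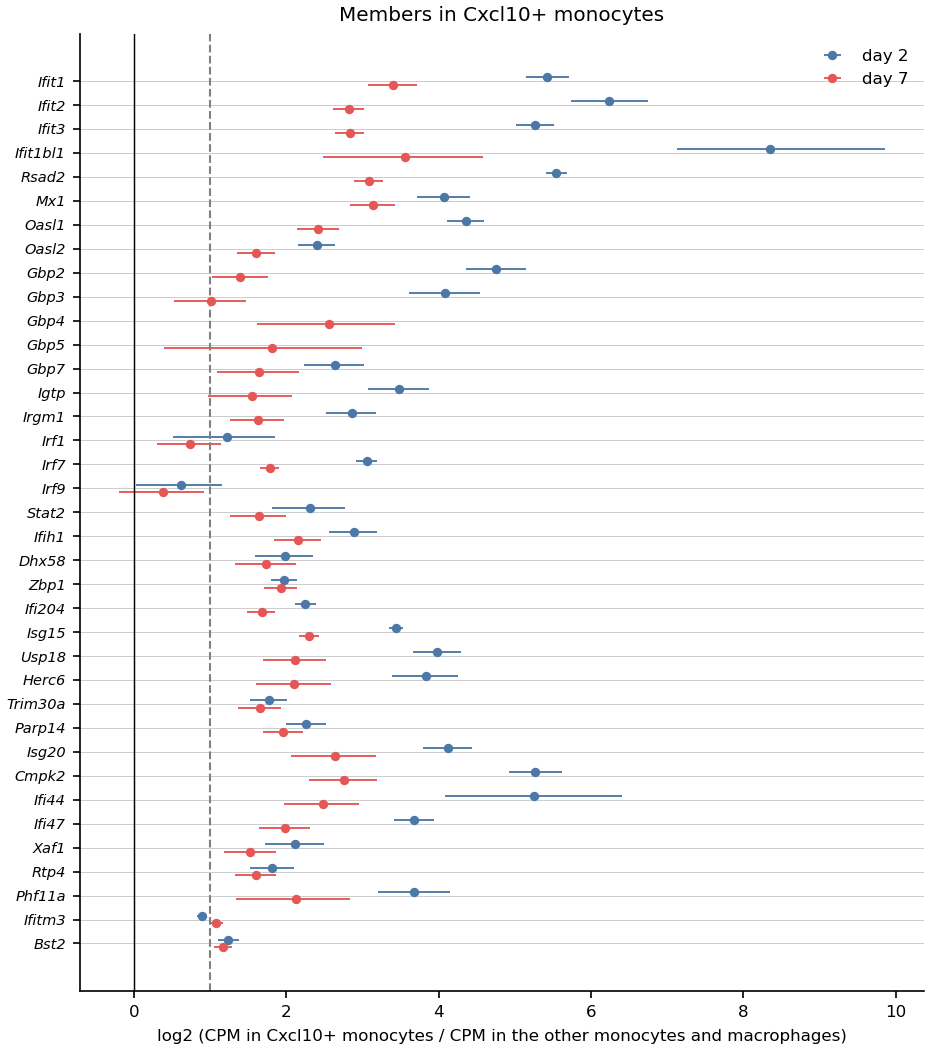
Log2 ratio of the CPM in Cxcl10+ monocytes (38 cells at day 2, 45 at day 7) to that in the other monocytes and macrophages, for each member and day, with 95% counting intervals. The dashed line marks 2-fold: Ifit1bl1 stands farthest right at day 2 (log2 ratio 8.35), followed by Ifit2, Rsad2 and Ifit1, all of them lie further left at day 7, and Irf9 stays left of the line on both days.

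The share of cells with the antiviral program was counted after thinning every cell to 2000 counts and asking for 3 or more antiviral counts. It was 30 of 38 Cxcl10+ monocytes at day 2 (78.9%, 62.7 to 90.5) and 42 of 45 at day 7 (93.3%, 81.7 to 98.6). Among the other monocytes and macrophages it was 41 of 1252 (3.27%, 2.36 to 4.42) and 113 of 708 (16.0%, 13.3 to 18.9). Neutrophils at day 2 had 142 of 569 (25.0%, 21.4 to 28.7), with 427 shallower cells left out. Endothelial cells went from 5.42% (3.24 to 8.43) to 19.5% (15.3 to 24.2), FAPs from 1.41% (0.291 to 4.06) to 8.28% (6.45 to 10.4), and T and NK cells from 1.52% (0.0384 to 8.16) to 10.3% (7.33 to 14.0). Type IIb myonuclei at day 7, which should hold little of these transcripts, had 2 of 98 cells (2.04%, 0.248 to 7.18) with 64 shallower cells left out, at a median of 2291.5 counts per cell before thinning. The median was 8400 in FAPs and 4179.5 in endothelial cells on that day. Without thinning the shares were 28.8% and 47.3% in the other monocytes and macrophages and 21.3% and 34.6% in FAPs.

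GTPase counts were spread differently over cells. At day 7 a thinned cell had 3 or more in 106 of 323 endothelial cells (32.8%, 27.7 to 38.2) and 60 of 223 of the Smooth Muscle label (26.9%, 21.2 to 33.2), but only in 7 of 45 Cxcl10+ monocytes (15.6%, 6.49 to 29.5) and 26 of 708 other monocytes and macrophages (3.67%, 2.41 to 5.34). The cells with the most counts, 10% of a label, held 61.3% of the antiviral and 43.8% of the GTPase counts of pro-remodeling FAPs at day 7. In capillary endothelial cells they held 48.7% and 32.0%, and in T cells 64.7% and 46.3%. In these 3 labels the antiviral counts sat in fewer cells than the GTPase counts, but in adipogenic FAPs the shares were 54.1% and 54.9% and in stem-labelled FAPs 65.2% and 66.7%.

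**Figure D5:**
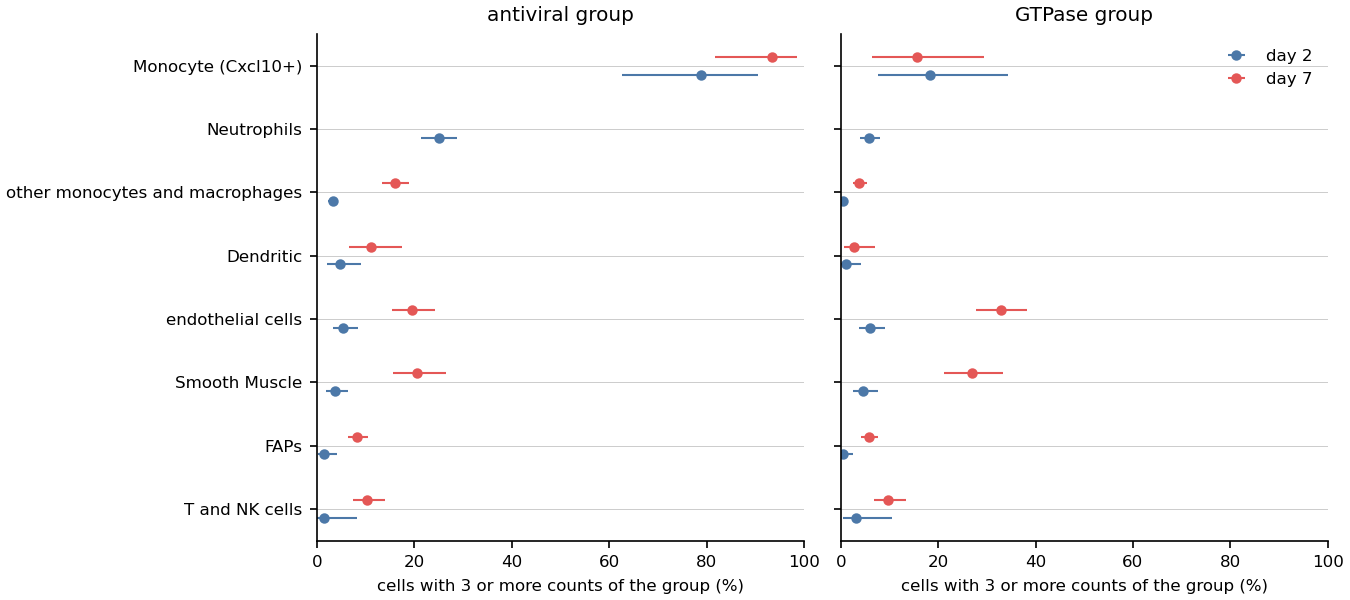
Percentage of cells with 3 or more counts of the antiviral group (left) and of the GTPase group (right) after thinning to 2000 counts per cell, by class and day, with 95% exact binomial intervals. Cxcl10+ monocytes reach 78.9% and 93.3% for the antiviral group, while endothelial cells lead the GTPase group at day 7 with 32.8%.

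The cells with the most antiviral counts came from many labels, a view chosen after their values were seen. The ranking used counts without scaling for depth, so that cells with more counts in all are favoured. At day 2 the top 1% (35 of 3494 cells, with 43 to 342 antiviral counts each) held 27.7% of all antiviral counts and 1.04% of all counts. They comprised 14 Cxcl10+ monocytes, 12 neutrophils, 3 dendritic cells, 2 capillary endothelial cells and single cells of 4 further labels. At day 7 the top 1% (34 of 3385 cells, with 51 to 561) held 20.7% of the antiviral counts and 2.34% of all counts, and comprised 11 pro-remodeling FAPs, 9 Cxcl10+ monocytes, 6 M1 macrophages, 3 cells of the Smooth Muscle label, 2 capillary endothelial cells and single cells of 3 further labels. Cxcl10, which was not part of the ranking but names a label that many of these cells carry, was at 1985 CPM among them against 41.1 in the rest on day 2, and at 1604 against 117 on day 7. Of its 1049 counts in the top cells of day 7, 448 came from the tenocyte-labelled cell described above, and without that cell the level was 966 CPM. Without the cells of the Cxcl10+ label it was 2347 at day 2, and without both 875 at day 7. Their GTPase level was 1667 against 142 and 1474 against 377.

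The genes around the members were read from a list of ligands, receptors, kinases and inhibitors. Ifng, the interferon gamma ligand, was found almost wholly in lymphocytes. NK cells had 265 CPM (170 to 395) on day 2 and 707 (635 to 785) on day 7, and T cells 18.2 (5.90 to 42.4) and 396 (367 to 428), with 1013 of its 1037 counts at day 7 in these labels. Its log2 ratio in T and NK cells was 2.56 (2.03 to 3.15). Ifnb1, the interferon beta ligand, had 5 counts at day 2 and 2 at day 7 over all cells. Of 7 ligands only Ifng reached 20 counts in a class. The type I genes among them were Ifnb1, Ifna1, Ifna2 and Ifna4, and no source of type I interferon was identified from these. Further type I genes were not read.

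Jak2, the kinase of the gamma receptor, was lower at day 7, against the direction of most members, by log2 ratio -0.51 (-0.74 to -0.28) in monocytes and macrophages, -0.51 (-0.73 to -0.29) in FAPs, -1.25 (-1.60 to -0.92) in endothelial cells and -1.06 (-1.48 to -0.63) in T and NK cells. The receptor chain Ifngr1 had 0.88 (0.78 to 0.98), 0.54, 0.86 and -0.41 (-0.65 to -0.17) in the same order. Ifnar1 had -0.45 (-0.61 to -0.29) in monocytes and macrophages and 1.05 (0.60 to 1.50) in endothelial cells. The feedback inhibitor Socs1 had -0.68 (-1.02 to -0.34) in monocytes and macrophages and intervals that held 0 in the other 3 classes, and Socs3 was at 170 (164 to 176) and 84.8 CPM (78.4 to 91.7) there and had 0.34 (0.26 to 0.43) in FAPs. Of the 4 receptors with 20 counts, 0 were called in monocytes and macrophages or FAPs and 2 were called higher in endothelial cells (Ifnar1 and Ifngr2), against 14.9% of all genes. Ifngr2 was called lower in T and NK cells at -1.02 (-1.92 to -0.03), against 8.12%. With 20 counts at day 2 alone as the minimum, 2 receptors were left in T and NK cells and 0 were called.

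Interferon-stimulated genes outside the 37 were also counted. From a list of 17 genes that lean to type I interferon, 5 of 16 with 20 counts at day 2 alone were called higher in monocytes and macrophages, 5 of 10 in FAPs, 7 of 11 in endothelial cells and 2 of 5 in T and NK cells, with 0 lower. From a list of 15 that lean to interferon gamma, the counts were 4 of 10, 4 of 6, 7 of 9 and 2 of 5, with 0 lower, and that list also holds Socs1. The shares of all genes called higher by the same minimum were 13.8%, 15.9%, 9.80% and 2.49%. Cxcl9, a chemokine induced mainly by interferon gamma, had log2 ratios of 3.39 (2.90 to 3.91) in monocytes and macrophages, 3.52 (3.28 to 3.76) in FAPs, where it went from 30.4 (25.8 to 35.5) to 348 CPM (335 to 361), and 4.43 (3.68 to 5.29) in endothelial cells. Ciita, the switch of MHC class II transcription, went from 14 to 400 counts in monocytes and macrophages, 5.97 (5.20 to 6.85). Cxcl9 and Ciita are named here after their values were seen.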

How the data were processed

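Single-cell 3' libraries (10x Chromium v3) of notexin-injured tibialis anterior were analysed, 1 at day 2 and 1 at day 7, with cells grouped by the deposited cell type label. The authors deposited filtered and raw matrices of UMI counts, whole numbers for each gene in each barcode, and SoupX-corrected estimated counts, in which ambient RNA has been subtracted. SoupX removed 2.90% and 2.60% of the counts. The submitters' processing notes name Cell Ranger 3.1.0, Seurat 3.1.5 and mm10, whereas the file headers give software version 3.0.1. According to the study's methods, doublets were removed with DoubletFinder and labels came from clusters of a large integrated collection. No doublet caller was run here, and the annotation table does not name the integration behind its labels. The study labelled cells separately after Harmony, BBKNN and Scanorama and used the Harmony labels in its own marker and ligand analyses.

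The main values were the deposited counts summed over all barcodes with a label, as CPM of all genes. The study's limits of 750 genes, 1000 transcripts and 30% mitochondrial transcripts, which 316 and 189 labelled cells fell outside, were an alternative. Intervals at 95% were exact Poisson for sums, exact binomial (Clopper-Pearson) for shares and exact conditional binomial for ratios. They cover counting error only. With 1 library per day no test of a condition was possible, and a call means a 2-fold difference in a gene with at least 20 counts over both libraries. A count of 0 was bounded at 3 counts per library. Ambient RNA was read from barcodes with 1 to 100 counts. Cells were thinned at random to 2000 counts for shares, leaving out shallower cells. The computations used Python 3.11.15, numpy 2.4.6, scipy 1.17.1 and pandas 2.3.3 and were tested on simulated data.

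All 37 members are named. Values are in full for the 2 members of each role with the most counts and for the 3 largest and 3 smallest day ratios in each class. The members and lists were chosen with earlier results of these data known. Alternatives changed the cell limits, the ambient correction, the scaling, the count minimum, the genes or cells summed and the thinning. Values of a further gene of the surrounding pathway are not reported here.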

Additional observations from a re-analysis of the deposited data

Results flagged for a closer look

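In 2 labels the day ratio ran against most others. In Cxcl10+ monocytes the log2 ratio of day 7 to day 2 was -0.41 for the antiviral group and -0.41 for the GTPase group, and neutrophils were lower for the antiviral group at -1.75, with 996 cells at day 2 and 22 at day 7. Of the 17 labels compared, 14 were above 0 for each group, and the difference between labels was not tested.

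For 2 members with at least 20 counts at day 2 the ratio had opposite signs in different classes, with intervals that left out 0. Ifitm3 had -1.30 in monocytes and macrophages and 0.26 in endothelial cells. Zbp1 had -0.40 in monocytes and macrophages and 1.84 in endothelial cells. The differences themselves were not tested.

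Called barcodes outside the annotation table entered no comparison but held both groups of transcripts above the ambient level. At day 2 the 1299 such barcodes had 213.5 CPM of antiviral counts (202 to 225) against an ambient 145, and 119 CPM of GTPase counts (111 to 128) against 61.2. At day 7 the 1473 such barcodes had 383 CPM (365 to 401) against 334, and 378 CPM (360 to 397) against 300.0. What these barcodes hold was not tested.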

How the results depend on the processing

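No paired analysis was possible because each day has 1 library. For the same reason no replicate could be left out. Of 147 group ratios, counts and shares recomputed under alternatives, 107 stayed within the interval of the main value or within 1.5 times the main count, and 40 moved beyond it. None of the group ratios changed direction. Counts, shares and the tenocyte level were not scored for direction. Of 426 values of single members, 421 stayed within their interval and 5 moved, all under median-of-ratios scaling. Restricting cells to the study's limits, SoupX correction and a minimum of 100 counts moved no group result.

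Leaving out the gene with the most counts gave log2 day ratios of 1.55 (antiviral) and 1.49 (GTPase) in monocytes and macrophages and 2.23 (antiviral) in FAPs. At day 2 it gave ratios of Cxcl10+ to other monocytes and macrophages of 4.19 for the antiviral group, against 4.66, and 3.64 for the GTPase group, against 3.41. With the mean over cells the day ratios were 2.07 (antiviral) and 2.11 (GTPase) in FAPs and 1.23 (GTPase) in monocytes and macrophages, and the antiviral ratio of Cxcl10+ to other cells at day 7 was 2.82, against 2.70. Without mitochondrial and ribosomal protein genes FAPs had 2.23 and 2.17. Adding Ifi47 to the GTPase group gave 1.22 in monocytes and macrophages. Apart from the smaller or larger sets of genes summed, the cause was not tested.

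The following alternatives were chosen after seeing the data, apart from median-of-ratios scaling of single members and their calls. Median-of-ratios scaling gave 2.21 and 2.15 in FAPs, 1 member called lower there against 0, and, for single members in FAPs, -0.41 for Ifi204, 1.21 for Isg15, -1.09 for Ifitm3 and 0.15 for Bst2, with 0.20 for Ifitm3 in endothelial cells. Without the Cxcl10+ label monocytes and macrophages had 1.55 and 1.51. Leaving out, on each day, the cell of the class or label with the most antiviral counts, the antiviral ratio was 1.32 in monocytes and macrophages and 1.88 in endothelial cells, and the tenocyte level at day 7 was 194.5 CPM. With 20 counts at day 2 alone as the minimum 2 of 6 T and NK members were called higher, against 31 of 36. Most of those 36 had passed the main minimum only through day 7.

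Shares of cells with antiviral counts depended on the thinning and on the minimum. Without thinning, which also lets shallow cells back in, they were 94.7% and 100% in Cxcl10+ monocytes on the 2 days, 28.8% and 47.3% in other monocytes and macrophages, 21.3% and 34.6% in FAPs, 18.4% and 44.9% in endothelial cells, and 18.7% in T and NK cells at day 7, while neutrophils at day 2 had 24.8% against 25.0% and type IIb myonuclei at day 7 had 1.24% against 2.04%. With 1 count they were 94.7% and 100%, 24.5% and 50.7%, 11.7% and 35.9%, 20.2% and 57.3%, and 31.2% in the same order, and 50.4% in neutrophils at day 2. T and NK cells had 73 cells at day 2, and thinning left out 427 of 996 neutrophils at day 2 and 64 of 162 type IIb myonuclei at day 7.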
